A study of Mus musculus with 10 samples.

Results

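The glutathione, thioredoxin and antioxidant genes described here were the 64 protein-coding genes, of 16082 with a known mRNA and 69572 genes of any class in the tables, whose symbol names a glutathione S-transferase, glutathione peroxidase, peroxiredoxin, thioredoxin relative or superoxide dismutase, or is Cat, Gclc, Gclm, Gsr, Gss, Hmox1, Hmox2, Nqo1, Srxn1, Nfe2l2 or Keap1. They were chosen by symbol alone, and the known mRNA transcripts of a gene were summed. Of them, 4 were superoxide dismutases and catalase, 4 make or recycle glutathione, 8 were glutathione peroxidases, 18 glutathione S-transferases, 8 peroxiredoxins with sulfiredoxin, 17 carried a thioredoxin name, and 5 were NRF2, KEAP1, a quinone reductase and the haem oxygenases. Txnl4a and Txnl4b, which are spliceosome proteins, entered by their names. Txn1, cytosolic thioredoxin, was not analysed here.

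The study sequenced RNA depleted of ribosomal RNA from mature sperm and whole testes of male C57BL/6 mice (C57BL/6J in the study's methods) labelled as 3 to 5 months old. Each arm had 50 mice per the labels, and controls were given saline while the others were given 1 intraperitoneal dose of 3 mg/kg CdCl2, with all mice killed on day 35. Control mice gave 4 pools of sperm and 2 samples of testes, and cadmium-treated mice 2 samples of each. Sperm swam out of the cauda epididymis and vas deferens and were treated with a buffer that lyses somatic cells, and the testes were whole tissue. Each control sperm pool combined many mice, of which the study's methods give a larger total than the labels, and the control testes came from the same mice. How many mice made up a cadmium sample is not given in the sources used here, so p-values measure the spread between these samples only.

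Cells remove peroxides with glutathione, which Gclc, Gclm and Gss make and Gsr recycles, and with thioredoxins, which thioredoxin reductases recycle. Glutathione peroxidases and peroxiredoxins reduce peroxides with electrons from these thiols, while glutathione S-transferases join glutathione to reactive molecules. Many of these genes are switched on by the transcription factor NRF2, the product of Nfe2l2, which KEAP1 holds in the cytoplasm and hands to a CUL3 ubiquitin ligase. Germ cells have their own members, among them the sperm thioredoxins Txndc2 and Txndc8, the testis reductase Txnrd3, and GPX4, which forms part of the sperm midpiece.

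Depth and tissue cannot be told apart in what was listed, since the 4 testes libraries were the deepest. The expected counts, which estimate the fragments from each transcript, summed to between 366455 and 2866856 in a sample, and known mRNAs took 9.14 to 13.6% of them. Between 5 and 26 of the 64 genes were above 0 in a control sperm pool, 23 and 29 in the cadmium sperm samples, 48 and 52 in the control testes and 48 and 51 in the cadmium testes. The highest count in any sample was under 3 for 18 of the 64 genes, 3 to under 10 for 28, and 10 or more for 18. A gene at 0 in control sperm 3, the shallowest library, could still have been present at up to 8.19 CPM (counts scaled to the library total), since a count of 0 allows 3 counts, while in control testes 1 the same limit was 1.05 CPM.

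**Figure D1:**
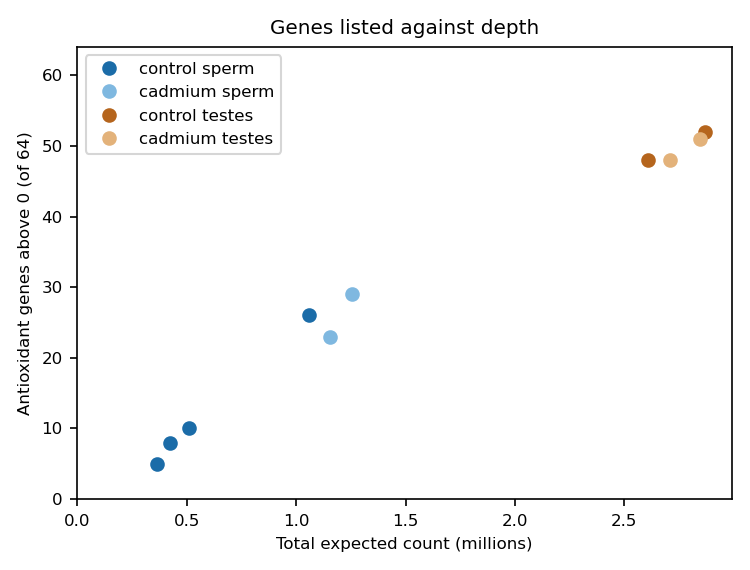
The number of the 64 antioxidant genes above 0 in each sample (vertical axis) against the sample's total expected count (horizontal axis), with 1 point per sample coloured by group. The 3 shallowest control sperm pools list 5, 8 and 10 genes, and the 4 testes samples, which are the deepest, list 48 to 52.

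The study left out control sperm 1, which correlated poorly with the other pools, and it was left out of the tests here and kept in the values. The tissue labels were checked against marker genes. The 7 markers of late spermatids and sperm summed to 234 to 465 FPKM (fragments scaled to transcript length and to library size) in sperm. In testes they summed to 467 to 572 FPKM, so as a list they did not mark sperm over testes. Prm2, the main protamine of sperm, had 45 to 291 counts in the 6 sperm samples and 220 to 465 in testes. Prm1 had 0 to 10 counts in sperm against 116 to 128 in testes, and Tnp1 0 to 3 against 86 to 142. Odf1, a flagellar gene, was at 0 in all 6 sperm samples and in the cadmium testes, with 6.43 and 6.55 counts in control testes. Akap4, another flagellar gene, had 0 to 1.99 counts in sperm and 23 to 39 in testes. The 6 markers of spermatogonia and meiotic cells were all at 0 in the 4 control sperm pools. They summed to 3.18 and 0.31 FPKM in cadmium sperm 1 and 2, against 3.08 to 7.59 FPKM in the testes. Sertoli cell markers summed to between 0 and 8.97 FPKM in sperm against 17.7 to 21.9 FPKM in testes. Leydig cell markers summed to between 0 and 6.90 FPKM in sperm except in control sperm 3, where they reached 27.5 FPKM on the 40 counts of Star. Leukocyte markers summed to between 0 and 13.8 FPKM in sperm, highest in cadmium sperm 2, and 2.64 to 4.58 FPKM in testes. Epididymal markers summed to 4.17 to 13.0 FPKM in sperm and 7.32 to 16.7 FPKM in testes. Red blood cell markers summed to at most 2.22 FPKM and markers of endothelium and peritubular cells to at most 0.85 FPKM in any sample. Dhh gave 13.9 to 18.3 FPKM of the Sertoli cell sum in testes and 0 to 3.63 FPKM in sperm. Clu and Sox9 reached 5.82 and 0.96 FPKM in cadmium sperm 2, above their level in any testes sample. The sum of Sertoli cell markers was lower in each sperm sample than in any testes sample, as were several genes below. The part of such cells in the differences was not tested, and in these bulk samples fewer cells of a type cannot be told apart from less RNA per cell.

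The 250 bases before the RefSeq start site are printed for 4 genes, picked after their values were seen. Keap1 (chr9:21239333-21239582, minus strand) and Gsto1 (chr19:47854723-47854972, plus strand) had a higher FPKM in every sperm sample than in any testes sample. Txnrd2 (chr16:18426167-18426416, plus strand) was listed in sperm alone, and Sod1 (chr16:90220512-90220761, plus strand) in testes alone. Other genes that differed between the tissues, among them Txndc2 and Gstz1, were not printed. Coordinates and sequence are RefSeq's on GRCm38.p6, each written 5′ to 3′ on the strand of the gene, and capitals mark the core of the antioxidant response element that NRF2 binds, searched as TGACNNNGC on both strands.
Keap1: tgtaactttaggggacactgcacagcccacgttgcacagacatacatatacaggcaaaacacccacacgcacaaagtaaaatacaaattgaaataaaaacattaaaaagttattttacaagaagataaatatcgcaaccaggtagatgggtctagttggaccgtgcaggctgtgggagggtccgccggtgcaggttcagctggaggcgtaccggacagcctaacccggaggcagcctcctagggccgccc
Gsto1: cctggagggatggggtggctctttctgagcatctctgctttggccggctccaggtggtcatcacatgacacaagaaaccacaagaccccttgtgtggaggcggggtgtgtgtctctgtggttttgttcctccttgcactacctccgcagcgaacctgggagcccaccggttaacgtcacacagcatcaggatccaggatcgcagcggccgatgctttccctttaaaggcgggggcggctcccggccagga
Txnrd2: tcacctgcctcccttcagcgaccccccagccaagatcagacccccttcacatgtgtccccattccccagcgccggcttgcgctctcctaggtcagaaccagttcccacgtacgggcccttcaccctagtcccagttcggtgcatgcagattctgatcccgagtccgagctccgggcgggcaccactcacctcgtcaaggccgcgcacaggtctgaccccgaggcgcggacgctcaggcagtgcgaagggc
Sod1: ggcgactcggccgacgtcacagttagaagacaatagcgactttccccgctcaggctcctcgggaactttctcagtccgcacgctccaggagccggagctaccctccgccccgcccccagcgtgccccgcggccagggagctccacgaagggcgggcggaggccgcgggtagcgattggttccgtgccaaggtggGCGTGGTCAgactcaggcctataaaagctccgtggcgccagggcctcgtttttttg
Of these 4 windows, that of Sod1 holds the letters, starting 56 bases before the start site on the opposite strand. Of the 64 genes, 54 had at least 1 window, and 11 of those held the core in at least 1, which is 20.4% against 11.5% of all 27025 genes with a window. The others were Gclm, Gsta3, Gstm5, Gstm7, Nfe2l2, Prdx1, Txndc11, Txndc2, Txndc5 and Txnrd1. A match is a description of the sequence and not a binding site.

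Most antioxidant genes tested in control mice lay lower in sperm, as most genes did. Between control sperm 2 to 4 and control testes, 21 of the 64 reached the filter of 1 FPKM in 2 samples and 7 of them passed the test at an adjusted p under 0.05 with a change of more than 2-fold, against 22.0% of all 24432 genes and 24.7% of the 4910 known mRNA genes tested. Txnrd2 was higher, where 4.40% of known mRNA genes were, and Gstz1, Sod1, Sod2, Prdx6b, Gstt2 and Prdx2 were lower, where 20.3% were. Of the 21 genes, 5 had a log2 fold change above 0, against 31.9% of known mRNA genes. The median log2 fold change of the 21 genes was -1.39, or -1.16 with the 8 genes at 0 in 1 group set at a bound (that group taken as 3 counts), against -1.22 for known mRNA genes, which scaling on known mRNAs alone moved to -1.39. Genes at 0 in control sperm entered the test only through the testes samples in which they were high, and Txnrd2 only through sperm, so these counts describe which genes could be seen. Without control sperm 2, the deepest pool, the bounds of the 6 lower genes were 0.746 to 4.71, with that of Prdx2 below 1. No gene of the 64 was called when genes were instead required to have 10 counts in total or were not filtered, nor without control sperm 2, control sperm 4, control testes 1 or control testes 2, and 3 were called without control sperm 3.

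Cadmium sperm and cadmium testes share no sample with the control comparison. There, 20 of the 64 genes were tested and 5 called, against 31.7% of all 25779 genes and 39.7% of the 5080 known mRNA genes. Sod1 and Gstt3, at 0 in cadmium sperm, entered this test only through the testes. Keap1 and Txndc17 were higher, where 20.8% of known mRNA genes were, and Sod1, Gstt3 and Txndc2 were lower, where 18.9% were. Of the 20 genes, 8 had a log2 fold change above 0, against 46.3% of known mRNA genes. The median log2 fold change of the 20 was -0.54, or -0.44 with the 3 genes at 0 in cadmium sperm set at their bound, against -0.24 for known mRNA genes, which scaling on known mRNAs alone moved to -0.38. The number called fell to 0 without cadmium testes 1, to 2 without cadmium sperm 1, and to 3 without cadmium sperm 2 or cadmium testes 2. Across all 10 samples, 6 of the 64 genes were listed in every testes sample and no sperm sample (Gpx8, Gsto2, Prdx6b, Sod1, Txndc8 and Txndc9), against 8.53% of known mRNA genes, 24 were listed in no sperm sample, against 33.5%, and 11 had every testes sample above every sperm sample, against 18.5%.

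**Figure D2:**
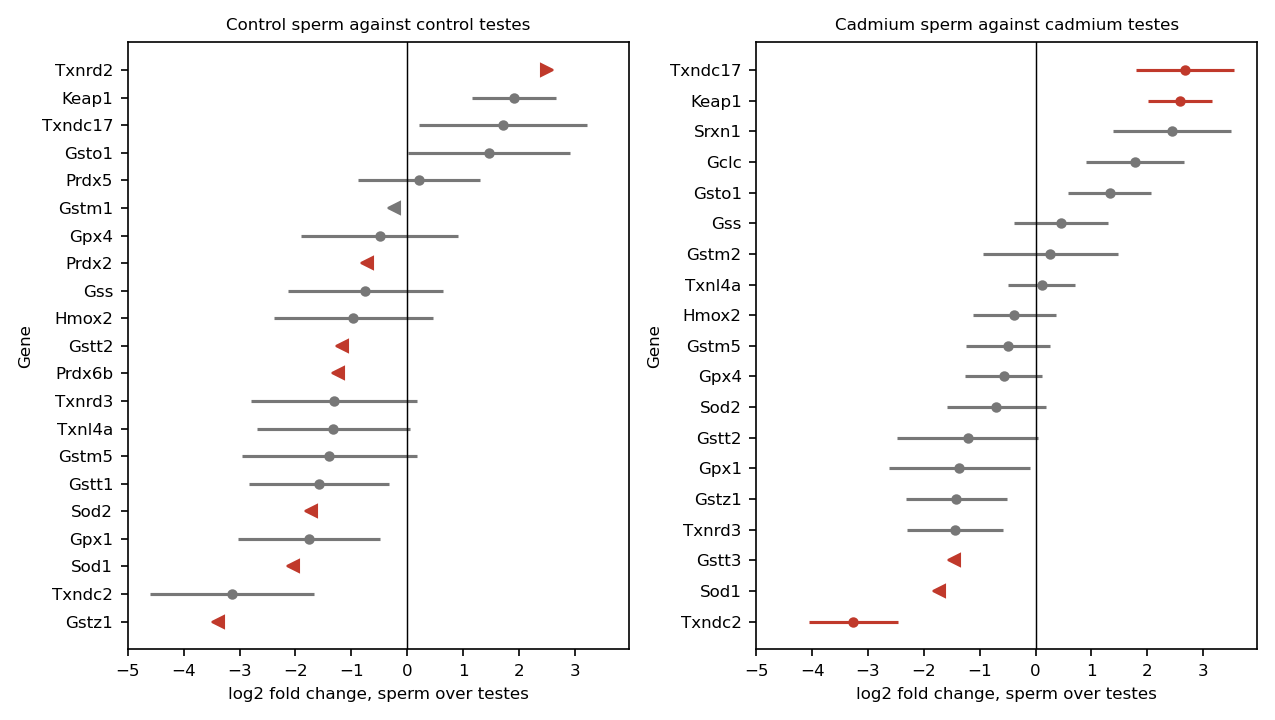
Log2 fold change of sperm over testes (horizontal axis) for the antioxidant genes tested (vertical axis) in control mice (left, 21 genes) and cadmium-treated mice (right, 19 of the 20 genes, without Prdx5, whose bound lay below 1-fold). Points with bars are the edgeR estimate ± SE, triangles are bounds for genes at 0 in 1 group with that group set at 3 counts, and red marks genes that passed the test; Txndc2 and Sod1 lie to the left in both panels and Keap1 to the right.

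KEAP1 is the sensor that keeps NRF2 low, and its mRNA had the highest FPKM of the 64 genes in 5 of 6 sperm samples. That rank was not particular to sperm. Among the 64, Keap1 also ranked 1st in control testes 2 and cadmium testes 2, 2nd in cadmium testes 1 and 5th in control testes 1. Keap1 had 49, 227, 42 and 98 counts in control sperm 1 to 4, and 460 and 217 in cadmium sperm 1 and 2. The testes samples, which were deeper, had 100 and 117 counts in the controls and 130 and 161 after cadmium. Per length and depth, this was 33.9, 61.0, 34.9 and 58.5 FPKM in control sperm, 117 and 50.7 FPKM in cadmium sperm, 9.75 and 13.7 FPKM in the control testes, and 13.3 and 17.8 FPKM in those given cadmium. The lowest sperm sample was above the highest testes sample. Keap1 and Gsto1 were the 2 of 64 genes with that pattern, which 1.88% of all 16082 known mRNA genes showed.

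Keap1 also took most of the counts of the 64 genes in every sperm sample except control sperm 1. Its share was 64.6% ± 13.3 (SD, n = 4) in control sperm (71.1% ± 3.48 without control sperm 1, n = 3) and 71.8% ± 9.27 (SD, n = 2) in cadmium sperm, against 19.9% ± 3.90 (SD, n = 2) in control testes and 25.5% ± 5.13 (SD, n = 2) in cadmium testes. The lowest share in sperm was 45.1% in control sperm 1, with a 95% Wilson interval of 35.9 to 54.3% that covers counting error only, and the highest in testes was 29.1% in cadmium testes 2, with an interval of 25.5 to 33.0%. The sperm and testes shares of counts therefore did not overlap. In FPKM, which is scaled to length, Keap1 took 23.1, 50.7, 50.1 and 47.5% of the 64 genes' sum in control sperm 1 to 4. It took 63.8 and 47.1% in cadmium sperm 1 and 2, and 8.12 to 15.2% in the testes samples.

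**Figure D3:**
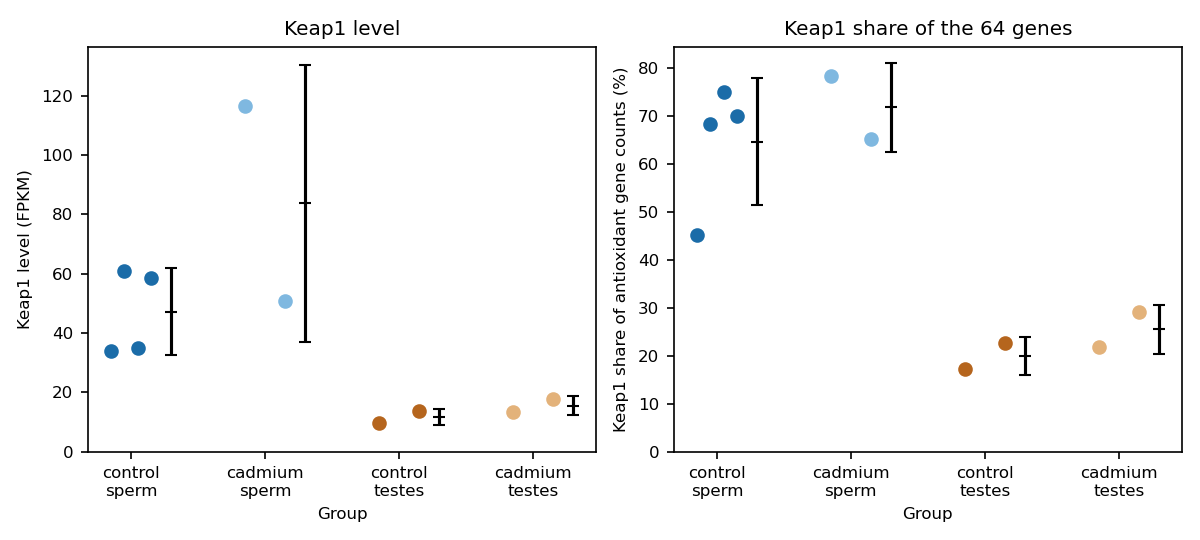
Keap1 in each sample by group, as its level in FPKM (left) and as its percentage of the summed counts of the 64 antioxidant genes (right); points are samples and the bars beside them the group mean ± SD. The 6 sperm samples lie between 33.9 and 117 FPKM and the 4 testes samples between 9.75 and 17.8 FPKM.

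Both tissue comparisons placed Keap1 higher in sperm, and the test called 1 of them. In cadmium sperm against cadmium testes Keap1 was higher by a log2 fold change of 2.58 (SE 0.57, edgeR quasi-likelihood test with Benjamini-Hochberg adjusted p = 7.84e-05). In control sperm 2 to 4 against control testes the log2 fold change was 1.91 (SE 0.75, adjusted p = 0.0540 by edgeR), just short of the threshold of 0.05. It passed under 6 of 16 other settings, over which the adjusted p ranged from 0.00292 to 0.535. The cadmium call was lost under 1 of 14 settings, without cadmium testes 1 (log2 fold change 2.10, with edgeR adjusted p = 0.117). Keap1 lies at chr9:21229730-21239332 in GRCm38.p6, where RefSeq gives no overlapping gene.

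The counts of Keap1 were spread over 4 RefSeq transcripts in a way that differed between replicates. In cadmium sperm 1, 359 of the 460 counts were on NM_001110306, whereas in cadmium sperm 2 all 217 were on NM_001110305. In control sperm 1 all 49 counts were on NM_001110305, and in control sperm 3 and 4 all 42 and 98 were on NM_001110306. Transcripts of 1 gene share sequence, so which of them was present is uncertain, and the gene sum was used.

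The other genes of the NRF2 and KEAP1 group had far fewer counts. Nfe2l2 itself had at most 7 counts in any sample and was above 0 in control sperm 2, cadmium sperm 2 and all 4 testes samples. Nqo1, a quinone reductase and a standard NRF2 target, was listed once, at 1 count in control sperm 2. Hmox1, the inducible haem oxygenase, was at 1 count in control testes 2 and cadmium testes 1 and at 0 elsewhere. Hmox2, the constitutive haem oxygenase, had 0, 8, 4 and 1 counts in control sperm, 5 and 10 in cadmium sperm, 22 and 36 in the control testes, and 17 and 34 in those given cadmium, and was called in no comparison.

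**Figure D4:**
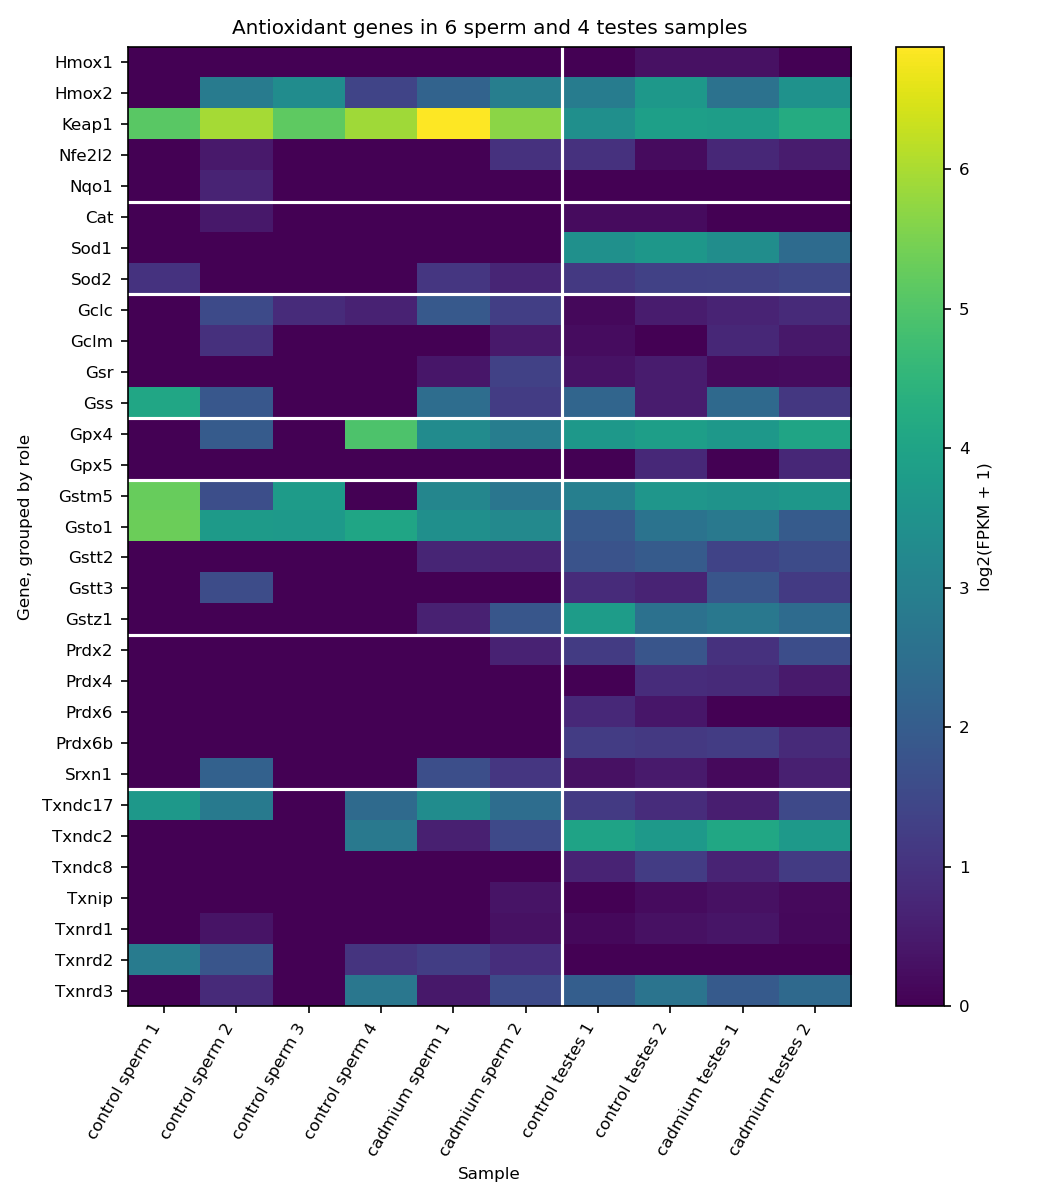
Level of 31 named antioxidant genes (rows, grouped by role with white lines between groups) in the 10 samples (columns), coloured by log2(FPKM + 1); the vertical white line separates 6 sperm from 4 testes samples. Keap1 is the brightest row in sperm apart from Gstm5 and Gsto1 in control sperm 1, while Sod1 and Txndc2 are bright in testes and dark in most sperm samples.

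The superoxide dismutases turn superoxide into hydrogen peroxide, and catalase breaks hydrogen peroxide down. Sod1, the cytosolic enzyme, had 17 and 18 counts in control testes and 16 and 7 in the cadmium testes, and 0 in all 6 sperm samples. In control sperm 2 to 4 it was at least 4.12-fold lower than in control testes (edgeR adjusted p = 0.0465), and in cadmium sperm at least 3.33-fold lower than in cadmium testes (edgeR adjusted p = 0.0203), a call lost without either cadmium sperm sample. The bound after cadmium was 1.73 and 1.59 without cadmium sperm 1 and 2, and 2.08 without cadmium testes 1. These bounds set the pooled sperm libraries at 3 counts. Sod1 was above 0 in no sperm sample and passed the filter only through testes, so the contrast is a limit and not a size. Its control call was lost under 7 of 14 other settings.

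Sod2, the mitochondrial enzyme, had 1.62, 0, 0 and 0 counts in control sperm, 5.01 and 3.05 in cadmium sperm, 13.1 and 15.0 in the control testes, and 17.0 and 17.9 in those given cadmium. It was at least 3.31-fold lower in control sperm 2 to 4 than in control testes (edgeR adjusted p = 0.0465) and was not called between the cadmium tissues (edgeR adjusted p = 0.586). In the control comparison Sod2 passed the filter only through testes, and 7 of 13 other settings lost its call. Cat had 1 count in each of 3 samples, and Sod3 2 counts in control testes 2 and 1 in cadmium testes 1. The 4 genes together summed to 12.4 FPKM ± 1.70 (SD, n = 2) in control testes and 8.59 FPKM ± 3.57 (SD, n = 2) in cadmium testes, against 0.123 FPKM ± 0.214 (SD, n = 3) in control sperm 2 to 4 and 0.890 FPKM ± 0.354 (SD, n = 2) in cadmium sperm.

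Among the genes that make glutathione, the catalytic subunit Gclc had 0, 7, 1 and 1 counts in control sperm, 11 and 6 in cadmium sperm, 1 and 4 in the control testes, and 6 and 7 in those given cadmium. In cadmium sperm against cadmium testes its log2 fold change was 1.78 (SE 0.88, edgeR adjusted p = 0.108). Gss, glutathione synthetase, had 12, 5, 0 and 0 counts in control sperm, 10 and 3 in cadmium sperm, 19 and 2 in the control testes, and 21 and 6 in those given cadmium. In both testes groups and in cadmium sperm, sample 1 was well above sample 2, so the groups overlap. Gclm, the modifier subunit, and Gsr, the reductase, stayed at or under 4 and 5 counts.

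Glutathione peroxidases were led by Gpx4, the phospholipid peroxidase of the sperm midpiece. Gpx4 had 0, 3, 0 and 14 counts in control sperm, 10 and 8 in cadmium sperm, 32 and 33 in the control testes, and 32 and 39 in those given cadmium. In FPKM the control sperm pools ran from 0 to 29.8, on both sides of the testes samples at 11.8 to 15.2. Neither tissue comparison called it, with log2 fold changes of -0.49 (SE 1.40, edgeR adjusted p = 0.833) in controls and -0.57 (SE 0.69, edgeR adjusted p = 0.565) after cadmium. Gpx5, which the epididymis secretes, had 3 counts in control testes 2 and 3 in cadmium testes 2 and 0 elsewhere. Of the 11 epididymal markers, Adam7, Rnase10 and Lcn8 were also higher in testes 2 than in testes 1 of both groups, Adam7 at 11 and 33 counts against 1 and 0. Epcam was too, while Lcn2 went the other way, Krt8, Krt18, Aqp9, Lcn5 and Crisp1 did not order alike in both groups, and Cdh1 was at 0 in the testes. The part of epididymal tissue in Gpx5 was not tested. The 6 remaining glutathione peroxidases had at most 9 counts in a sample.

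Glutathione S-transferases were the largest family, with Gstz1 and Gstt2 called lower in control sperm, Gstt3 called lower in cadmium sperm, and none called higher. Gsto1, of the omega class, had 19, 15, 5 and 9 counts in control sperm, 13 and 12 in cadmium sperm, 9 and 15 in the control testes, and 19 and 9 in those given cadmium. At 8.39 to 39.5 FPKM in sperm against 2.77 to 5.90 FPKM in testes, its samples did not overlap. The test did not call it, with log2 fold changes of 1.47 (SE 1.45, edgeR adjusted p = 0.484) in controls and 1.33 (SE 0.75, edgeR adjusted p = 0.163) after cadmium. Gsto1 and Keap1 were also the 2 of 64 genes listed in all 10 samples, as were 4.59% of known mRNA genes.

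Gstz1, which isomerises maleylacetoacetate in tyrosine breakdown, had 0 counts in all 4 control sperm pools, 1 and 5 in cadmium sperm, 68.3 and 20.0 in the control testes, and 27.7 and 18.0 in those given cadmium. It was at least 10.4-fold lower in control sperm 2 to 4 than in control testes (edgeR adjusted p = 0.0331). The bound was 4.94 without control testes 1 and 4.71 without control sperm 2. After cadmium the log2 fold change was -1.42 (SE 0.90, edgeR adjusted p = 0.225). RefSeq places Pomt2 and Gm6566 over parts of the same locus. Gstt2, of the theta class, had 0 counts in control sperm, 1 and 1 in cadmium sperm, and 6 to 10 in testes, and was at least 2.24-fold lower in control sperm 2 to 4 (edgeR adjusted p = 0.0465). In that comparison Gstt2 passed the filter only through testes, and 7 of 13 other settings lost the call.

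Gstt3, a second theta class gene, had 4 counts in control sperm 2 and 0 in the other 5 sperm samples, against 4.16 and 2.98 in control testes and 13.0 and 6.10 in the cadmium testes. It was at least 2.76-fold lower in cadmium sperm than in cadmium testes (edgeR adjusted p = 0.0308), a call lost under 6 of 11 other settings, among them leaving out either cadmium sperm sample. The bound was 1.44 and 1.32 without cadmium sperm 1 and 2, and 1.81 without cadmium testes 1. Gstm5, a mu class gene of germ cells, had 14, 2, 4 and 0 counts in control sperm, 8 and 6 in cadmium sperm, 17 and 25 in the control testes, and 26 and 27 in those given cadmium. Its control sperm pools, at 0 to 38.1 FPKM, lay on both sides of its testes samples at 6.85 to 11.6 FPKM. The other 13 transferases had at most 7 counts in a sample. The mu and theta genes resemble one another in sequence, so counts between them may be split uncertainly.

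Peroxiredoxins reduce peroxides with a cysteine that sulfiredoxin can restore. Prdx6b, a close copy of Prdx6, had 11 and 9 counts in control testes, 11 and 6 in cadmium testes, and 0 in all sperm samples, and was at least 2.35-fold lower in control sperm 2 to 4 (edgeR adjusted p = 0.0465). Prdx2 had 5 and 9 counts in control testes, 4 and 8 in cadmium testes, 1 in cadmium sperm 2, and 0 in the other sperm samples, and was at least 1.65-fold lower in control sperm 2 to 4 (edgeR adjusted p = 0.0465). In the control comparison Prdx6b and Prdx2 passed the filter only through testes, and 7 of 13 other settings lost each call. The bound of Prdx2 lay below the 2-fold threshold, which the edgeR estimate passed. Prdx6 itself was listed in control testes alone, at 5 and 2 counts, and reads of Prdx6 and Prdx6b may be shared. Prdx4, the peroxiredoxin of the endoplasmic reticulum, had at most 2 counts. Srxn1, sulfiredoxin, had 10 counts in control sperm 2 and 0 in the other control pools, 7 and 4 in cadmium sperm, and 1 to 4 in testes, with a log2 fold change of 2.45 (SE 1.06, edgeR adjusted p = 0.0614) in cadmium sperm against cadmium testes.

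In the thioredoxin group Txndc2 had the most counts in testes, and Txndc17 was called higher in cadmium sperm. Txndc2, a thioredoxin of the sperm tail, had 0, 0, 0 and 5 counts in control sperm, 1 and 4 in cadmium sperm, 73 and 56 in the control testes, and 80 and 57 in those given cadmium. Every testes sample was above every sperm sample, at 11.8 to 16.3 FPKM against 0 to 5.81 FPKM. It fell by 3.26 on the log2 scale in cadmium sperm against cadmium testes (SE 0.79, edgeR adjusted p = 0.000358), a call lost under 1 of 14 settings, without cadmium testes 1 (edgeR adjusted p = 0.0676). In controls the log2 fold change was -3.13 (SE 1.47, edgeR adjusted p = 0.115). Txndc8, another sperm thioredoxin, had 1 or 2 counts in each testes sample and 0 in sperm, and Txnrd3 had 20 to 34 counts in testes and 0 to 7 in sperm with no call.

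Txndc17, a small cytosolic thioredoxin relative, had 7, 9, 0 and 3 counts in control sperm, 15 and 8 in cadmium sperm, 5 and 3 in the control testes, and 2 and 7 in those given cadmium. It was higher in cadmium sperm than in cadmium testes by a log2 fold change of 2.68 (SE 0.88, edgeR adjusted p = 0.0110), and 6 of 14 other settings lost this call, among them leaving out cadmium sperm 1 or cadmium testes 1. In controls the log2 fold change was 1.72 (SE 1.5, edgeR adjusted p = 0.425). Txnrd2, the mitochondrial thioredoxin reductase, had 5, 5, 0 and 1 counts in control sperm, 3 and 2 in cadmium sperm, and 0 in all 4 testes samples. In control sperm 2 to 4 it was at least 5.66-fold higher than in control testes, setting the pooled testes at 3 counts (edgeR adjusted p = 0.0138), on 6 counts in all. Txnrd2 passed the filter only through control sperm, where it is high, so the call says little beyond these counts. The bound was 2.09 without control sperm 2, and 2.70 and 2.97 without control testes 1 and 2. Leaving out either control testes sample ended the Txnrd2 call (edgeR adjusted p = 0.883 and 0.899), and in cadmium mice it was not tested. Txnrd2 was the 1 gene of the 64 listed in at least 3 of 6 sperm samples and no testes sample, as were 0.591% of known mRNA genes. With Nqo1 and Gstp1 at 1 and 2 counts, 3 of the 64 were listed in sperm and in no testes sample, against 3.79%. Txnrd1, the cytosolic reductase, and Txnip, the thioredoxin inhibitor, had at most 3 and 2 counts.

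Summed by role, sperm and testes had totals in the same range and of different makeup. The 64 genes summed to 69.7 to 147 FPKM in control sperm, 108 and 183 FPKM in cadmium sperm, and 117 to 124 FPKM in the testes. The NRF2 and KEAP1 group, mostly Keap1, took 33.9 to 120 FPKM of this in sperm and 17.2 to 28.6 FPKM in testes, with no overlap. The thioredoxin group summed to 0 to 18.7 FPKM in sperm and 25.2 to 29.7 FPKM in testes, also with no overlap. Txndc2 alone gave 11.8 to 16.3 FPKM of this in testes and 0 to 5.81 FPKM in sperm, and without it the tissues overlap. Glutathione S-transferases summed to 15.5 to 24.8 FPKM in 5 sperm samples and 77.6 FPKM in control sperm 1, around the 26.8 to 36.5 FPKM of the testes. These sums were chosen with results known and carry no test.

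**Figure D5:**
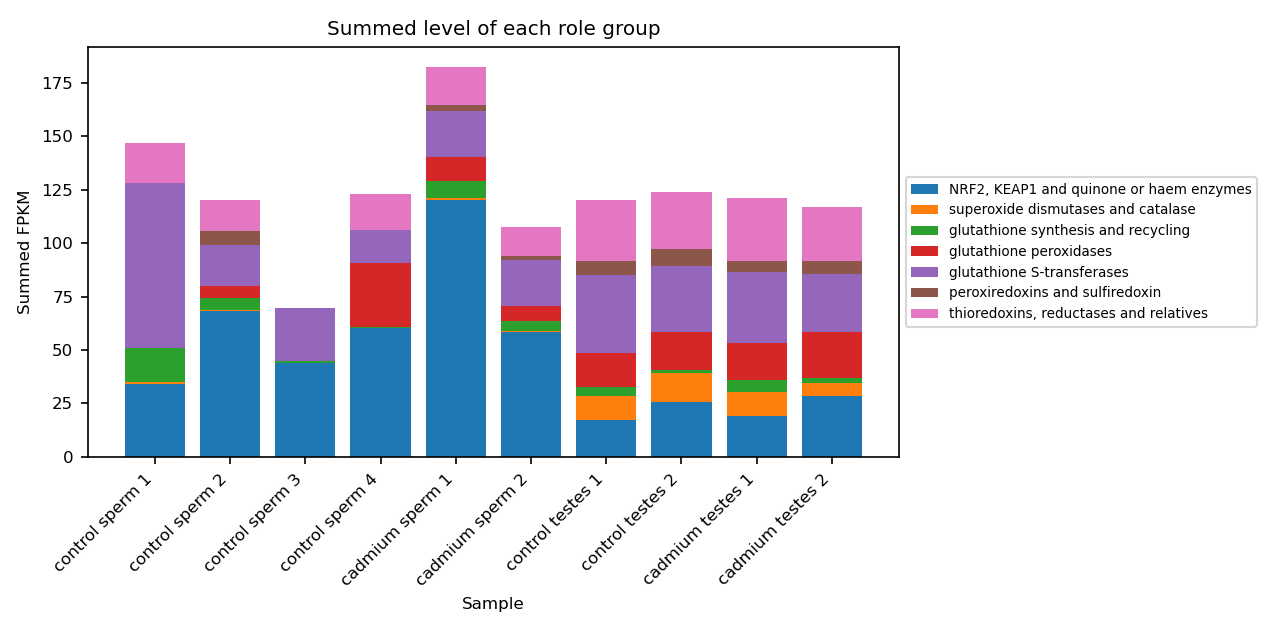
Summed FPKM of the 64 antioxidant genes in each sample, stacked by role group, with 1 bar per sample and the axis starting at 0. The NRF2 and KEAP1 segment is 17.2 to 28.6 FPKM in the 4 testes samples and 33.9 to 120 FPKM in the 6 sperm samples, and the superoxide dismutase and catalase segment is 6.07 to 13.6 FPKM in testes and 0 to 1.14 FPKM in sperm.

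Cadmium, a metal that binds thiols such as glutathione, was compared with saline in each tissue. These comparisons share their control samples with the control tissue comparison and their cadmium samples with the cadmium tissue comparison. In testes, 24 of the 64 genes were tested and none was called by edgeR, against 0.0225% of all 26724 genes. None had an unadjusted p under 0.05, and DESeq2 and limma also called none. With a replicate block 3 had an unadjusted p under 0.05, and 1 did with no filter or without control testes 1, with no call. The log2 fold changes ran from -0.80 (SE 0.57) for Gstz1 to 1.43 (SE 0.84) for Gstt3, with a median of 0.14 against 0.02 for known mRNA genes. Sod1 was at -0.62 (SE 0.65), Txndc2 at 0.13 (SE 0.48) and Keap1 at 0.47 (SE 0.50).

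In sperm, 13 of the 64 genes were tested against control sperm 2 to 4 and edgeR called none, against 0.0824% of all 20638 genes. Again none had an unadjusted p under 0.05, and neither DESeq2, which gave 4 of the 13 an adjusted p, nor limma called any. The log2 fold changes ran from -0.71 (SE 2.05) for Txnrd3 to 1.29 (SE 1.98) for Gss. Both turned direction under other settings, Gss to -0.42 with all 4 pools and Txnrd3 to 0.031 without cadmium sperm 1, and Gss ran from 0.32 to 5.22 with 1 sample left out. The median was 0.19 against 0.50 for known mRNA genes. Keap1 was at 0.68 (SE 0.53), with cadmium sperm 2 at 50.7 FPKM inside the range of the control pools and cadmium sperm 1 at 117 FPKM above it. Gsto1 was at -0.48 (SE 1.45). The standard error was 1.45 or more on the log2 scale for the 12 genes other than Keap1, so changes of several-fold were not detectable. The biological coefficient of variation that edgeR estimated was 0.815 here against 0.391 in the testes comparison, and the parts of depth and of spread between pools were not separated.

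The effect of cadmium in sperm was then tested against that in testes in 1 fit of 9 samples. Of the 27 genes tested edgeR called none, against 0.0396% of all 32813 genes. Gstt3 and Gstz1 had an unadjusted p under 0.05 (0.0265 and 0.0347, with adjusted p of 1.00 for both by edgeR), and DESeq2 and limma called none. For Keap1 the difference of the effects was 0.15 on the log2 scale (SE 0.95). The NRF2 targets Hmox1 and Nqo1 were at 0 or 1 count in every sample and could not be followed. Gclc and Srxn1 reached 11 and 10 counts in a sample, and no cadmium comparison called either.

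Genes of the wider pathway were read from 4 further lists, beside which 24.7% of known mRNA genes tested were called in the control tissues and 39.7% in the cadmium tissues. Glrx3, Msra and Nox3, named below, were at 0 in control sperm 2 to 4 and were tested only through the testes. Of 21 other glutathione and glutaredoxin genes, 7 were tested in the control tissues with 1 higher (Ggt7) and 2 lower (Oplah and Glrx3) in sperm, and 8 in the cadmium tissues with 2 higher (Ggt7 and Glrx5) and 2 lower (Oplah and Hpgds). These calls rest on few sperm counts: Glrx5 had 5 in cadmium sperm against 1 in cadmium testes, and Hpgds 3.33 against 50.6. Of 18 other thioredoxin-fold and methionine sulfoxide genes, 4 and 4 were tested with 2 lower in each, Msra and Qsox1 in the controls and Nxn and Qsox1 after cadmium. Of 24 other NRF2 targets and partners, 5 and 5 were tested, with Mafk lower in both and Cul3 higher after cadmium. Of 14 genes that make reactive oxygen species, 4 and 4 were tested, with Nox3 and Noxo1 lower in the controls and Noxo1 lower after cadmium. No gene of these lists was called by edgeR for cadmium in either tissue. At an unadjusted p under 0.05 there was none in testes and 4 in sperm (Glrx5, Msra, Fth1 and Maff), each at 0 counts in 1 group. Slc7a11, the cystine carrier that NRF2 induces, had enough counts to follow, with log2 fold changes after cadmium of 0.27 (SE 0.50) in testes and -0.11 (SE 0.69) in sperm. For Sqstm1, an autophagy receptor that NRF2 also induces, they were -0.06 (SE 0.54) in testes and -0.49 (SE 1.30) in sperm.

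Oplah, which opens 5-oxoproline in the glutathione cycle, had 238 and 242 counts in control testes and 256 and 257 in the cadmium testes, against 12, 3, 0 and 2 in control sperm and 6 and 4 in cadmium sperm. Its log2 fold changes in sperm were -5.28 (SE 1.11, edgeR adjusted p = 0.000303) in controls and -4.25 (SE 0.67, edgeR adjusted p = 9.9e-09) after cadmium. Noxo1, an organiser of NADPH oxidase, had 434 to 489 counts in testes and 0 to 44 in sperm, with log2 fold changes of -2.51 (SE 0.80, edgeR adjusted p = 0.0283) and -2.44 (SE 0.57, edgeR adjusted p = 0.000191). The control call of Noxo1 was lost under 8 of 16 other settings, among them leaving out control sperm 2, control sperm 4 or control testes 2. That of Oplah was lost under 2 of 16. Counts of both genes were higher in every testes sample than in any sperm sample, in libraries that were also deeper. FPKM, which is scaled to library size, was also higher in every testes sample, as for 18.5% of known mRNA genes. It was 21.05 to 24.08 in testes against 0 to 7.17 in sperm for Oplah, and 68.79 to 78.97 against 0 to 30.3 for Noxo1.

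Ggt7, a gamma-glutamyltransferase relative, ran the other way, with 0, 6, 11 and 1 counts in control sperm, 9 and 7 in cadmium sperm, and at most 1 in each testes sample. Its log2 fold change was 4.23 (SE 1.14, edgeR adjusted p = 0.00155) after cadmium, a call lost without cadmium testes 1 or cadmium testes 2. In controls it was 5.23 (SE 1.99, edgeR adjusted p = 0.0472), a call that 10 of 14 other settings lost, among them leaving out control sperm 4 or either control testes sample. Cul3, the ligase scaffold that KEAP1 serves, had 6, 16, 0 and 14 counts in control sperm, 24 and 18 in cadmium sperm, 14 and 38 in the control testes, and 15 and 19 in those given cadmium. It was higher in cadmium sperm than in cadmium testes by a log2 fold change of 1.70 (SE 0.66, edgeR adjusted p = 0.0360), and 8 of 14 other settings lost that call, among them leaving out cadmium sperm 1 or either cadmium testes sample.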

How the data were processed

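RNA of 10 samples was sequenced from both fragment ends with strand kept, after ribosomal RNA removal by RNase H. The authors filtered the reads and aligned them with SOAPaligner/SOAP2, and the submitters' processing notes also name HISAT and the mm10 build. The tool that gave the expected counts is not given in the sources used here. For each transcript above 0 the authors deposited an expected count, which was not normalized, and an FPKM, scaled to length and library size. Transcripts that a sample did not list were taken as 0.

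Known mRNA transcripts were summed by gene symbol and other transcripts by gene and class. Summed expected counts were rounded and tested with edgeR 4.0.16 (quasi-likelihood, TMM) in R 4.3.3 over genes reaching 1 FPKM in 2 or more of the samples compared. A call needed an adjusted p (Benjamini-Hochberg) under 0.05 with over 2-fold change. SE is the log2 fold change divided by the square root of F. Control sperm 1 was left out, as in the study. Genes named in the text were every called gene, the 5 with the highest mean FPKM in each group, and 24 listed by symbol, with others by counts or ranges, and of the other pathway lists up to 5 called genes each. Genes named beyond that rule (Sod3, Gpx8, Gsto2, Gstp1, Txndc9, Prdx5, Txnl4a, Txnl4b, and those named for their promoters) were chosen after their values were seen. The genes and lists were chosen with earlier results of these data known. The test was tried on simulated counts. Alternatives were DESeq2 1.42.0, limma 3.58.1 on log2(FPKM + 1) or log2(FPKM + 0.1), other scaling, filters and samples, a replicate block, and leaving out each sample. Intervals are Wilson at 95%. Values were handled in Python 3.11.15 with pandas 2.3.3, numpy 2.4.6, scipy 1.17.1 and matplotlib 3.10.9. Promoter windows and gene positions come from RefSeq on GRCm38.p6.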

Additional observations from a re-analysis of the deposited data

Results flagged for a closer look

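In the 4 control sperm pools, 13 measures (named genes with at least 10 counts in a pool and the summed FPKM of the role groups) were checked for a pool far from the rest, and 6 stood out. The nominal rate of about 1 flag in 20 does not apply, since needing 10 counts in a pool favours genes high in 1 pool. The transferase sum includes Gsto1 and the peroxiredoxin sum includes Srxn1, so the 6 are not independent. Control sperm 1, which the study left out, had the highest Gsto1 at 39.51 FPKM against 12.09 to 15.53 in the others, the highest Gss at 15.81 FPKM against 0 to 2.63, and the highest sum of glutathione S-transferases at 77.62 FPKM against 15.53 to 24.76. Control sperm 4 had the highest Gpx4, at 29.8 FPKM against 0 to 2.9. Control sperm 2, the deepest pool, had Srxn1 at 3.39 FPKM and a sum of peroxiredoxins and sulfiredoxin of 6.3 FPKM, both of which were 0 in the other 3 pools.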

How the results depend on the processing

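Calls among these genes depended on the setting. For control sperm against control testes, the genes called were 2495 by DESeq2, 1879 with at least 10 counts in total, 1344 with no filter, 1215 with known mRNA genes alone, and 880 to 4335 with 1 sample left out. Of the antioxidant genes, DESeq2 called 1 (Gstz1, with no adjusted p for 9 of the 21), the 10-count filter and no filter 0, and leaving out 1 sample 0 to 3. For cadmium sperm against cadmium testes the genes called were 5039 by DESeq2, 2295 with known mRNA genes alone, 4272 with all groups in 1 fit, and 1619 to 5255 with 1 sample left out, and the antioxidant genes called were 2, 6, 3, and 0 to 3. For cadmium in testes, 0 genes were called by limma with either pseudocount, with the 10-count filter or with known mRNA genes alone, 88 with no filter, 3 in 1 fit of all groups, and 4 to 29 with 1 sample left out. For cadmium in sperm, 9 were called with DESeq2's size factors, 10 by DESeq2, 0 and 1168 by limma with pseudocounts of 1 and 0.1, 3 with known mRNA genes alone, and 7 to 42 with 1 sample left out. For the difference of the cadmium effects, 3 were called with DESeq2's size factors or the 10-count filter, 0 by DESeq2, by limma with either pseudocount or with known mRNA genes alone, and 0 to 26 with 1 sample left out. No setting called an antioxidant gene in these 3 comparisons. The cause of these changes was not tested.

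Same-numbered samples share a number but no stated source, and their deviations correlated at r = 0.446 between the testes groups, with 2 pairs, 0.091 between the cadmium tissues, and -0.056 between the control tissues. With 2 pairs and no stated source the number was not taken as a pairing in any comparison. With a replicate block, 89 genes were called for cadmium in testes, with 0 antioxidant genes called and 3 at an unadjusted p under 0.05, 6902 for cadmium sperm against cadmium testes with 3 antioxidant genes, and, on 4 control sperm pools, 1404 for control sperm against control testes with 1 antioxidant gene and 12 for cadmium in sperm. The log2 fold change of Gpx4 in control sperm against control testes ran from -2.57 to 0.076 with 1 sample left out, the highest without control sperm 3. For cadmium in sperm, that of Gss was -0.42 with 4 pools and -1.29 with the block too, and that of Txnrd3 was 0.30 by limma with a pseudocount of 0.1, 1.46 with the block and 4 pools, and -1.26 to 0.031 with 1 sample left out, the highest without cadmium sperm 1. The difference of cadmium effects on Keap1 ranged from -0.36 to 1.00 with 1 sample left out. With all 4 pools, control sperm summed to 0.345 FPKM for superoxide dismutases and catalase, 5.68 for glutathione synthesis and 34.3 for glutathione S-transferases (0.123, 2.30 and 19.9 with pools 2 to 4), and the last was 19.7 in cadmium sperm rescaled to the same known mRNA sum.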

Other observations

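The 2 samples of a testes group differed alike in both treatments for some genes, which were picked out after their values were seen. Gss had 19 and 21 counts in control testes 1 and cadmium testes 1 and 2 and 6 counts in control testes 2 and cadmium testes 2. Hmox2 had 22 and 17 counts in the first of these pairs and 36 and 34 in the second. Whether the samples with the same number share a source is not given in the labels.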
